A study of Mus musculus with 3 samples.

Results

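DNA replication and nucleotide supply genes are 43 of the 21887 protein-coding genes in a RefSeq gene table of the mouse build GRCm38.p6 (mm10), and all 43 were found in it. They are the genes of origin recognition and licensing, the MCM helicase, CDC45 and GINS, the sliding clamp and its loader, the DNA polymerases and strand joining, and nucleotide synthesis, with 3 chromatin genes of S and G2 phase and 2 E2F transcription factors. Their chromatin was read from single-cell ATAC-seq, in which a transposase cuts open DNA inside nuclei and the cuts are counted per barcode. Nuclei came from mouse tissue labelled glioma and were processed with the v2 kit for 10x single-cell ATAC. The 3 libraries are titled, 1 each, for PDGFB-NLS overexpression, PDGFB-WT overexpression and Control. All 3 belong to a series of brain tumors made by in utero electroporation of piggyBac transposons, and no label gives a strain, sex, age, number of animals or IDH status for any of them. The sources used here do not spell out NLS, the promoter that drives PDGFB, or whether the Control nuclei came from a tumor, and while the Control label says glioma, the names of its deposited files say Normal.

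Replication starts when the origin recognition complex, CDC6 and CDT1 load the MCM ring onto DNA in G1 phase. In S phase CDC45 and GINS turn that ring into the active helicase, the polymerases copy the strands on the sliding clamp PCNA, and ribonucleotide reductase and thymidylate enzymes supply the building blocks. Many of these genes are transcribed late in G1 under E2F factors, and genes used later in the cycle often carry CHR elements and CCAAT boxes. PDGFB, a growth factor, drives division of glial precursors through its receptors.

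A gene's level is the count in peaks within 1000 bp of either of its ends, scaled to 1000000 counts in the 47450 regions called in all 3 libraries (CPM). The libraries held 24566056 such counts for PDGFB-NLS, 6747958 for PDGFB-WT and 25780355 for Control, from 10996, 7441 and 2226 barcodes in that order. A barcode's median count was 2767.5 in PDGFB-NLS, 821 in PDGFB-WT and 13054 in Control. Barcode sequences found in more than 1 library numbered 184. Of the 43 genes, 39 had a peak at an end in every library. Orc1, Orc4, Rfc1 and Lig1 had none in any, since the gene in that table extends past the open start site, and their levels are given at the start sites of the RefSeq promoter table. The ratios below are log2 ratios of CPM minus the median of all compared genes, with exact 95% intervals that cover counting error only. A gene counts as past the limit where its ratio is at least 0.32 from 0, and past the stricter limit of 1.5-fold at 0.58. Comparison required 100 counts in the library with fewer, which left out Prim1 (78 counts) and Tyms (74 counts) wherever PDGFB-WT was involved. With 1 library in each group no ratio has a replicate check and none was tested. A lower summed value can come from fewer cells of a type or from less open chromatin per cell, and these cannot be told apart.

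In PDGFB-WT, Cdt1, Rfc5, Uhrf1 and Top2a were less open than in Control by more than the limit of 0.32, relative to all genes. From each library's own peaks at the gene ends, 5 of the 37 compared genes lay past it on the low side (13.5%, with Fen1 beside these 4), where 11.8% of all 10850 compared genes did. A further 3 genes were past it on the high side (Tk1, Pcna and Rrm1, 8.11%), against 14.1% of all genes. At 1.5-fold the counts were 3 lower (8.11%), against 2.97% of all genes, and 2 higher (5.41%), against 5.9%. The median of the 37 genes was -0.03, and 21 of them lay below the all-gene median.

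Peaks were called separately in each library, so a window can take in a peak in 1 library that lies just outside it, or was not called, in another. The same genes were therefore also read over matched regions, those called in all 3 libraries and counted alike in each. There 5 of 37 genes were past the limit and lower in PDGFB-WT (Cdt1, Rfc5, Pola2, Uhrf1 and Top2a), against 10% of 10856 compared genes, and 0 were higher, against 14%. At 1.5-fold 0 genes were lower, against 1.73% of all genes, and 0 were higher, against 5.87%, so none of the 5 genes past that limit from own peaks was past it here. The median was -0.05, and 25 of the 37 lay below the all-gene median. On either reading the share of lower genes was near that of all genes.

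Cdt1, which brings the MCM ring to origins and is destroyed once S phase begins, had 90.5 CPM in PDGFB-NLS, 58.7 CPM in PDGFB-WT and 90.3 CPM in Control. All of it lay in 1 region over the start site, chr8:122567358-122568363. The log2 ratio of PDGFB-WT to Control was -0.45 (95% interval -0.68 to -0.24) at the gene ends and -0.47 (-0.70 to -0.26) over matched regions. It was -0.18 at the gene ends when each barcode had equal weight, so its size depends on how barcodes of unequal depth are summed. Rfc5, a subunit of the clamp loader, had 66.1 CPM in PDGFB-NLS, 34.2 CPM in PDGFB-WT and 58.0 CPM in Control, a PDGFB-WT to Control ratio of -0.59 (-0.89 to -0.31). Of this, 61.4 CPM in PDGFB-NLS, all 34.2 CPM in PDGFB-WT and 54.4 CPM in Control lay at the start site, chr5:117388529-117389506, where the ratio was -0.52 (-0.82 to -0.24). That was the lowest ratio of the 37 genes over matched regions. Divided by the summed length of its called peaks, 1 in PDGFB-WT and 2 in Control, the Rfc5 ratio was 0.37.

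Uhrf1, which binds hemimethylated DNA behind the fork and recruits the maintenance methyltransferase, had 73.3 CPM in PDGFB-NLS, 41.9 CPM in PDGFB-WT and 75.6 CPM in Control, a PDGFB-WT to Control ratio of -0.68 (-0.94 to -0.43). A region over the outer of its 2 listed start sites, chr17:56302555-56303436, had 12.2 CPM in PDGFB-NLS and 11.5 CPM in Control. It was not called in PDGFB-WT. The region over the inner start site, chr17:56303756-56304673, had 61.1, 41.9 and 64.1 CPM in PDGFB-NLS, PDGFB-WT and Control. There the PDGFB-WT to Control ratio was -0.46 (-0.73 to -0.21). Own peaks gave -0.12 within 2000 bp of the ends and -0.07 per kb of peak. Top2a, the topoisomerase that untangles sister DNA before mitosis, had 73.3 CPM in PDGFB-NLS, 50.2 CPM in PDGFB-WT and 75.1 CPM in Control, all at chr11:99023862-99024773. Its PDGFB-WT to Control ratio was -0.41 (-0.65 to -0.18), and -0.43 (-0.67 to -0.20) over matched regions. Pola2, the B subunit of polymerase alpha, had 45.8 CPM in PDGFB-NLS, 36.3 CPM in PDGFB-WT and 50.8 CPM in Control over 3 regions. Its ratio of -0.32 (-0.60 to -0.04) at the ends was just short of the limit and that of -0.34 (-0.62 to -0.06) over matched regions just past it. The start site region alone, chr19:5963761-5964640, held 33.3 CPM in PDGFB-NLS, 21.5 CPM in PDGFB-WT and 34.4 CPM in Control. The Pola2 ratio at the ends was -0.17 with equal weight per barcode and -0.20 with barcodes of at least 1000 counts. For Cdt1, Uhrf1 and Top2a the interval of PDGFB-NLS to Control took in 0 while PDGFB-WT lay apart, and for Rfc5 PDGFB-NLS was also above Control. For Pola2 the interval of PDGFB-NLS to Control took in 0 too. So did that of PDGFB-NLS to PDGFB-WT, at 0.22 (-0.06 to 0.50) over matched regions. The start site regions of these 5 genes lie within 1000 bp of no other protein-coding gene's end.

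**Figure D1:**
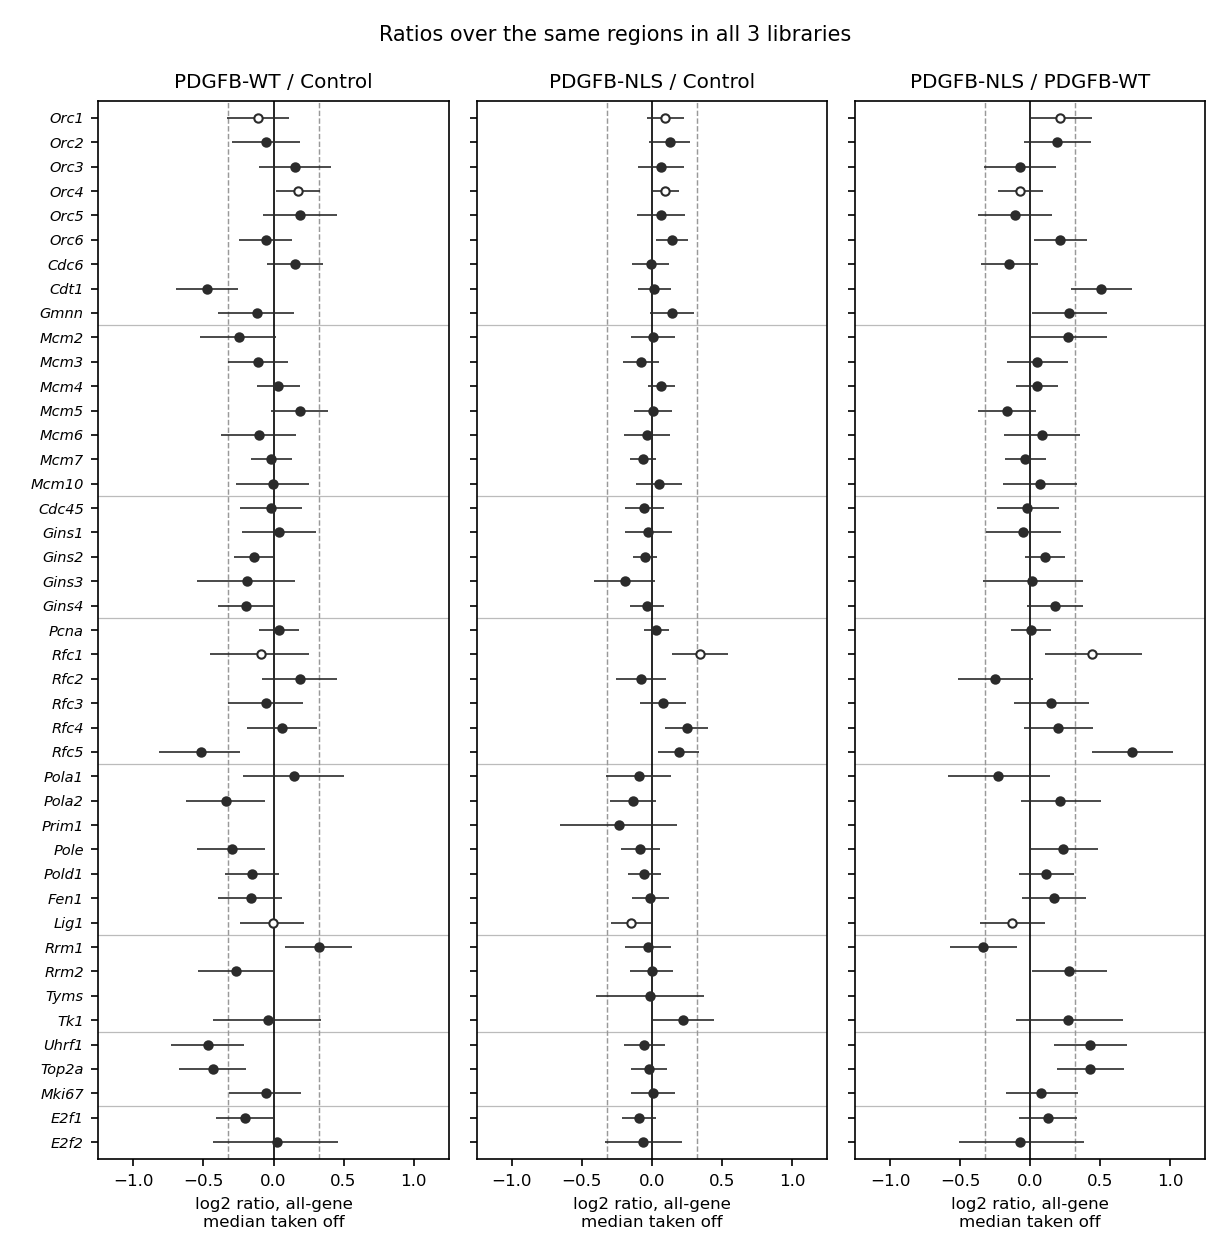
Log2 ratios of CPM over the same regions in all 3 libraries (horizontal axis, all-gene median taken off) for each replication gene (rows, grouped by complex), in 1 panel for each comparison. Points are ratios and bars exact 95% counting intervals, open points are read at start sites, and dashed lines mark the limit of 0.32. Cdt1 (-0.47), Rfc5 (-0.52), Uhrf1 (-0.46) and Top2a (-0.43) lie left of the line in PDGFB-WT against Control and near 0 or to the right in the other panels.

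Marker levels of other cell types also differed between the libraries, and are given from own peaks and then over matched regions, since peaks not called in a library drop out of its own sum. Summed over the gene ends of 12 oligodendrocyte precursor (OPC) markers, the level was 255 CPM in PDGFB-NLS, 302 CPM in PDGFB-WT and 189 CPM in Control, with a peak at 12, 11 and 12 of the 12 markers in that order and none at Cspg5 in PDGFB-WT. Over the matched regions of 11 of these markers it was 230 CPM in PDGFB-NLS, 267 CPM in PDGFB-WT and 180 CPM in Control. The 12 endothelial markers summed to 107, 56.6 and 144 CPM, with peaks at 11, 5 and 12 markers. Cldn5, Pecam1, Cdh5, Tek, Esam, Slco1a4 and Ly6c1 had no peak called at an end in PDGFB-WT, and Emcn had none in PDGFB-NLS. The 4 endothelial markers with matched regions summed to 67.5 CPM in PDGFB-NLS, 53.5 CPM in PDGFB-WT and 84.0 CPM in Control, a smaller gap than from own peaks. In the same order, the 12 microglia or macrophage markers summed to 284, 210 and 330 CPM, without a PDGFB-WT peak at Aif1, Itgam and Trem2, and to 230, 210 and 263 CPM over matched regions (9 markers). The 12 oligodendrocyte markers summed to 260, 152 and 280 CPM, without a PDGFB-WT peak at Mag and Mobp, and to 208, 157 and 218 CPM over matched regions (10 markers). The astrocyte markers summed to 306, 335 and 262 CPM, with peaks at 10, 9 and 10 of 12, none at Aqp4 and Slc4a4 in any library and none at Gja1 in PDGFB-WT. Over matched regions 9 astrocyte markers summed to 274, 322 and 241 CPM. The mural or fibroblast markers summed to 92.6, 52.6 and 78.0 CPM, with peaks at 8, 4 and 7 of 10, and to 69.7, 52.6 and 64.7 CPM over matched regions (4 markers). The neuron markers summed to 92.2, 69.8 and 86.3 CPM, with peaks at 10, 6 and 10 of 12. For neurons the order changed over matched regions, where 5 markers summed to 59.8 CPM in PDGFB-NLS, 66.1 CPM in PDGFB-WT and 38.1 CPM in Control, so that PDGFB-WT was lowest from own peaks and highest over matched regions. The lymphocyte markers summed to 35.0, 21.9 and 42.6 CPM, with peaks at 6, 2 and 3 of 10, and to 25.6, 21.9 and 34.9 CPM over matched regions (2 markers). A list of 12 mitosis genes, with peaks at all 12 in each library, summed to 597 CPM in PDGFB-NLS, 449.6 CPM in PDGFB-WT and 589 CPM in Control, and over matched regions to 589, 449.6 and 584 CPM. Over matched regions PDGFB-WT was thus lowest for the mitosis list, as for the sum of the replication genes. It was also lowest there for the oligodendrocyte, microglia or macrophage, endothelial, mural or fibroblast and lymphocyte markers. For the OPC, astrocyte and neuron markers it was highest. PDGFB-WT also had the fewest counts per barcode. These marker sums are not relative to other genes. Over matched regions the median log2 ratio of PDGFB-WT to Control over all compared genes was itself -0.15. The part of cell makeup and depth in the low values of Cdt1, Rfc5, Pola2, Uhrf1 and Top2a was not tested.

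The promoters of the replication genes were searched for the letters of E2F sites, taken as TTTCCCGC, TTTGGCGC, TTTCGCGC or TTTGCCGC on either strand and with overlaps counted. RefSeq's GRCm38.p6 promoter table gave 45 promoters of 300 bases for 36 of the 43 genes, and held none for Rfc2, Pole, Mcm4, Gins1, Gins4, Gmnn and Gins2. An E2F match lay in 15 of the 45 (33.3%), against 607 of all 21263 promoters (2.85%). The genes were Cdc6, Cdt1, E2f2, Gins3, Lig1, Mcm3, Mcm5, Mcm6, Mcm7, Orc1, Orc3, Pola1, Pold1, Rfc3 and Uhrf1, and no nucleotide synthesis gene was among them. The CCAAT box, searched as CCAAT on either strand, lay in 27 of the 45 (60%), against 38.2% of all promoters. The CHR element, searched as TTTGAA on either strand, lay in 7 (15.6%), against 16% of all. A match is a string of letters in this window and not a measured binding site.

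**Figure D2:**
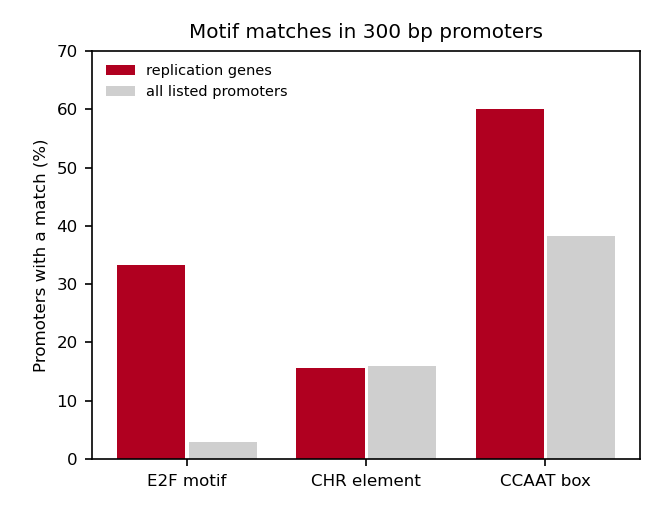
Share of 300-base promoters (vertical axis, percent) with at least 1 match to the E2F, CHR and CCAAT letters, for the 45 promoters of replication genes (red) and all 21263 listed promoters (grey). E2F letters were in 33.3% of the replication gene promoters and 2.85% of all, while the CHR shares were 15.6% and 16%.

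Of the genes with an E2F match, Cdc6 had the highest ratio of PDGFB-WT to Control at the gene ends and Uhrf1 the lowest, and Mcm6 had most matches among the MCM genes. Their promoters are shown with those of Cdt1 and Top2a, which were added because both were low in PDGFB-WT. Capitals mark the E2F letters, or in Top2a the CHR and CCAAT letters, and base 251 is the start site. In genome coordinates they are chr11:98907901-98908200 on the plus strand (Cdc6), chr17:56304063-56304362 on the plus strand (Uhrf1), chr1:128359656-128359955 on the minus strand (Mcm6), chr8:122567765-122568064 on the plus strand (Cdt1) and chr11:99024140-99024439 on the minus strand (Top2a).
Cdc6: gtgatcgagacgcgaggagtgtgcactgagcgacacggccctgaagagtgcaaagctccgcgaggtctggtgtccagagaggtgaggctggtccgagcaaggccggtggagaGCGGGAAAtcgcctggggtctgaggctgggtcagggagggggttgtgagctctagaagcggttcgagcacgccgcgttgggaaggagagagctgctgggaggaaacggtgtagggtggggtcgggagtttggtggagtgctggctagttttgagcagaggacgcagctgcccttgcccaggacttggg
Uhrf1: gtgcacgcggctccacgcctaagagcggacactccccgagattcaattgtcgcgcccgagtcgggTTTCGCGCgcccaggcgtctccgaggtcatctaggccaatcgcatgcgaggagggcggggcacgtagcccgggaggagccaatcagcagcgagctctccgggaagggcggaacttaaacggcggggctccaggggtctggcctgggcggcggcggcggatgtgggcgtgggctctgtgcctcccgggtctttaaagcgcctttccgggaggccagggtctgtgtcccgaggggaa
Mcm6: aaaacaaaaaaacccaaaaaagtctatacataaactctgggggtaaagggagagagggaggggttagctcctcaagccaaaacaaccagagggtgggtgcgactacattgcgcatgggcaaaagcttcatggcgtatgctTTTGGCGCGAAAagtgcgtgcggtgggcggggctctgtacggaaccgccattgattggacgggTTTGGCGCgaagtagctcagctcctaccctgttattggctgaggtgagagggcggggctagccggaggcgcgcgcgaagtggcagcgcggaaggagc
Cdt1: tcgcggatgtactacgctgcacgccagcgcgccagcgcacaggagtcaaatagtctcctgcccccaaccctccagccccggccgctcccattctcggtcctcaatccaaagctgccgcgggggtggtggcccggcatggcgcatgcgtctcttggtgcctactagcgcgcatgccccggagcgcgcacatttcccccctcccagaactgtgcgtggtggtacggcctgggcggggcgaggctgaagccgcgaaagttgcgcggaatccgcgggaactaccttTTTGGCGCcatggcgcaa
Top2a: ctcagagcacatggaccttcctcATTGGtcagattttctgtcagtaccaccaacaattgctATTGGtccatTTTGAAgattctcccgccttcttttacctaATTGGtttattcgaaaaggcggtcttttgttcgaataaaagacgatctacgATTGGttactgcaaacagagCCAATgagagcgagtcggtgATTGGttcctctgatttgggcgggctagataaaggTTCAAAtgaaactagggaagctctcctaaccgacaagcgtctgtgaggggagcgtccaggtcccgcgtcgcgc
Mcm6 holds 3 E2F matches, of which 2 overlap, Cdc6, Uhrf1 and Cdt1 hold 1 each, and Top2a holds none but 2 CHR and 6 CCAAT matches. Counted from the start site, the match begins at base 32 in Cdt1, at base -185 in Uhrf1 and at base -138 in Cdc6. The PDGFB-WT to Control ratios over matched regions were 0.16 (-0.05 to 0.36) for Cdc6, -0.46 for Uhrf1, -0.10 (-0.38 to 0.16) for Mcm6 and -0.47 for Cdt1. Of the genes shown with the E2F letters, Cdc6 alone lay above the all-gene median, and Cdc6, Uhrf1 and Cdt1 had been picked by their ratios. The 0.16 of Cdc6 came from its far end, since the start site alone gave -0.07 (-0.30 to 0.16).

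The genes that were higher in PDGFB-WT from own peaks, and Fen1 among the lower ones, lost most of their difference over matched regions, apart from Rrm1. Tk1, the salvage kinase for thymidine, had 7.57 CPM in PDGFB-NLS, 19.7 CPM in PDGFB-WT and 6.83 CPM in Control from own peaks, a PDGFB-WT to Control ratio of 1.70 (1.23 to 2.16). PDGFB-WT had a single peak, in the region chr11:117824284-117825211, which reached into the window. That region held 25.8 CPM in PDGFB-NLS, 19.7 CPM in PDGFB-WT and 22.4 CPM in Control, but in PDGFB-NLS and Control its peak ended outside the window and a smaller one at the start site, chr11:117825635-117826530, was counted instead. Over the matched region the ratio was -0.04 (-0.43 to 0.34). Both Tk1 regions also lie at an end of Afmid. Pcna, the sliding clamp that tethers the polymerases, had 104 CPM in PDGFB-NLS, 144 CPM in PDGFB-WT and 104 CPM in Control from own peaks, a ratio of 0.64 (0.49 to 0.78). A region of 53.1, 48.5 and 51.2 CPM beside the far end, chr2:132247186-132248513, which also lies at the end of Tmem230, was in the window in PDGFB-WT alone. With it counted in each library Pcna had 157, 144 and 155 CPM, and the ratio was 0.04 (-0.10 to 0.18). The start site region of Pcna also lies at an end of Cds2. Fen1, the nuclease that trims Okazaki fragments, had 99.5 CPM in PDGFB-NLS, 56.5 CPM in PDGFB-WT and 108 CPM in Control from own peaks, a ratio of -0.76 (-0.99 to -0.55). At an end shared with Tmem258, a region of 30.7 CPM in PDGFB-NLS and 37.6 CPM in Control, chr19:10204627-10205429, was not called in PDGFB-WT. Its count in PDGFB-WT is unknown, and without it the ratio was -0.16 (-0.39 to 0.06). Regions this open were seldom missing, since of 12356 regions with at least 20 CPM in both PDGFB-NLS and Control, 90 (0.728%) were not called in PDGFB-WT.

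**Figure D3:**
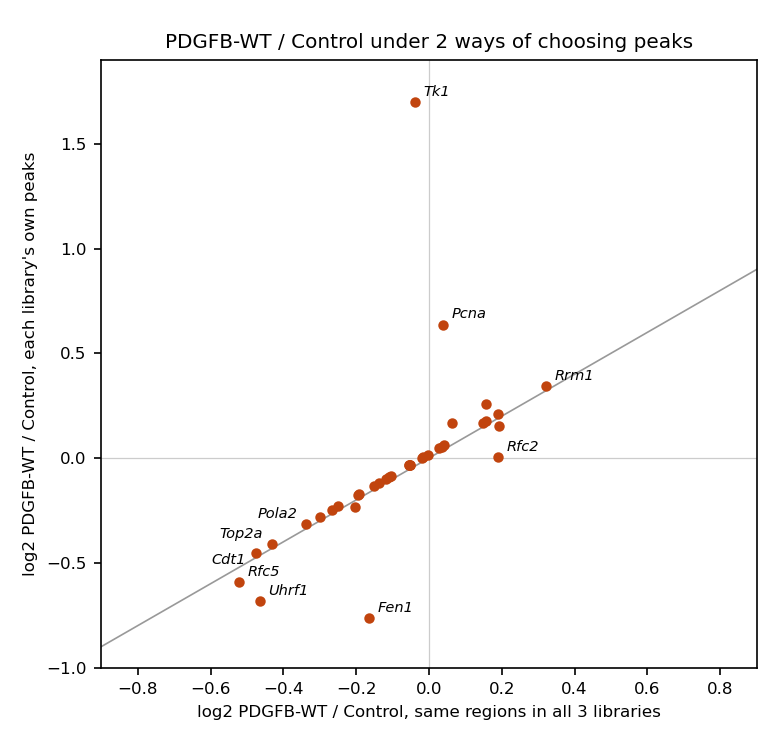
Log2 PDGFB-WT to Control ratios of the replication genes from the same regions in all 3 libraries (horizontal axis) and from each library's own peaks (vertical axis), 1 point a gene, with the line of equal values. Most genes lie on the line, while Tk1 (1.70 against -0.04), Pcna (0.64 against 0.04) and Fen1 (-0.76 against -0.16) lie far from it.

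Rrm1, the large subunit of ribonucleotide reductase, was the gene whose higher value in PDGFB-WT did not turn on the choice of peaks. Its single region, chr7:102441305-102442203, held 47.8 CPM in PDGFB-NLS, 55.6 CPM in PDGFB-WT and 49.3 CPM in Control. The PDGFB-WT to Control ratio was 0.34 (0.10 to 0.58) against all gene ends and 0.32 (0.08 to 0.56), which fell just short of the unrounded limit, against matched regions. Rrm2, the small subunit, had 52.6 CPM in PDGFB-NLS, 40.0 CPM in PDGFB-WT and 53.3 CPM in Control, a ratio of -0.27 (-0.54 to -0.00) over matched regions. The subunits of 1 enzyme thus lay on opposite sides of the all-gene median in PDGFB-WT.

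PDGFB-NLS and Control had nearly the same levels at the replication genes. From own peaks Prim1 alone was past the limit and higher in PDGFB-NLS (0.32, -0.05 to 0.70), 1 of 39 genes, against 10.9% of 12574 compared genes, and 0 were lower, against 5.37%. Over matched regions 0 of 39 were higher, against 9.96% of 12550 genes, and 0 were lower, against 4.26%. The matched ratios ran from -0.24 (Prim1) to 0.25 (Rfc4) with a median of -0.01. Prim1, the catalytic primase subunit, had 10.3 CPM in PDGFB-NLS, 11.6 CPM in PDGFB-WT and 8.34 CPM in Control. Its PDGFB-NLS sum held another peak of 3.34 CPM past the far end that was called in no other library, and the matched start site alone gave -0.24 (-0.66 to 0.18). Rfc4 had the highest of these, followed by Tk1 (0.22). Rfc4, a clamp loader subunit, had 61.3 CPM in PDGFB-NLS, 49.2 CPM in PDGFB-WT and 52.2 CPM in Control over matched regions, a ratio of PDGFB-NLS to Control of 0.25 (0.10 to 0.40). Rfc1, the large subunit, which has no peak at its listed ends, had 35.9 CPM in PDGFB-NLS, 24.3 CPM in PDGFB-WT and 28.7 CPM in Control at its start site, chr5:65335187-65336150. Its ratio was 0.34 (0.14 to 0.54), and it alone of 36 genes was past the limit and higher at start sites, against 9.36% of 10222 genes. At Rfc5 the ratio was 0.19 (0.04 to 0.34) and at the origin gene Orc6 0.14 (0.03 to 0.26), both within the limit.

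PDGFB-NLS against PDGFB-WT shares a library with each of the comparisons above, so its values repeat part of those differences. From own peaks 5 of 37 genes were past the limit and higher in PDGFB-NLS, against 10.9% of 10861 compared genes, and 3 were lower, against 11%. Over matched regions 4 were higher, against 8.73% of 10865 genes. They were Rfc5 at 0.73 (0.44 to 1.02), Cdt1 at 0.51 (0.29 to 0.73), Uhrf1 at 0.43 (0.17 to 0.69) and Top2a at 0.43 (0.19 to 0.67). Rrm1 alone was lower, at -0.33 (-0.57 to -0.09), against 10.4% of all genes, and the median of the 37 genes was 0.11. Own peaks added Fen1 to the higher genes (0.67, 0.46 to 0.90, against 0.17 over matched regions). To the lower ones they added Tk1 at -1.52 (-1.97 to -1.07) and Pcna at -0.61 (-0.76 to -0.46), which over matched regions were at 0.27 (-0.10 to 0.66) and 0.01 (-0.13 to 0.15). Rfc5 was the only gene past 1.5-fold over matched regions, where 1.35% of all genes were that much higher.

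**Figure D4:**
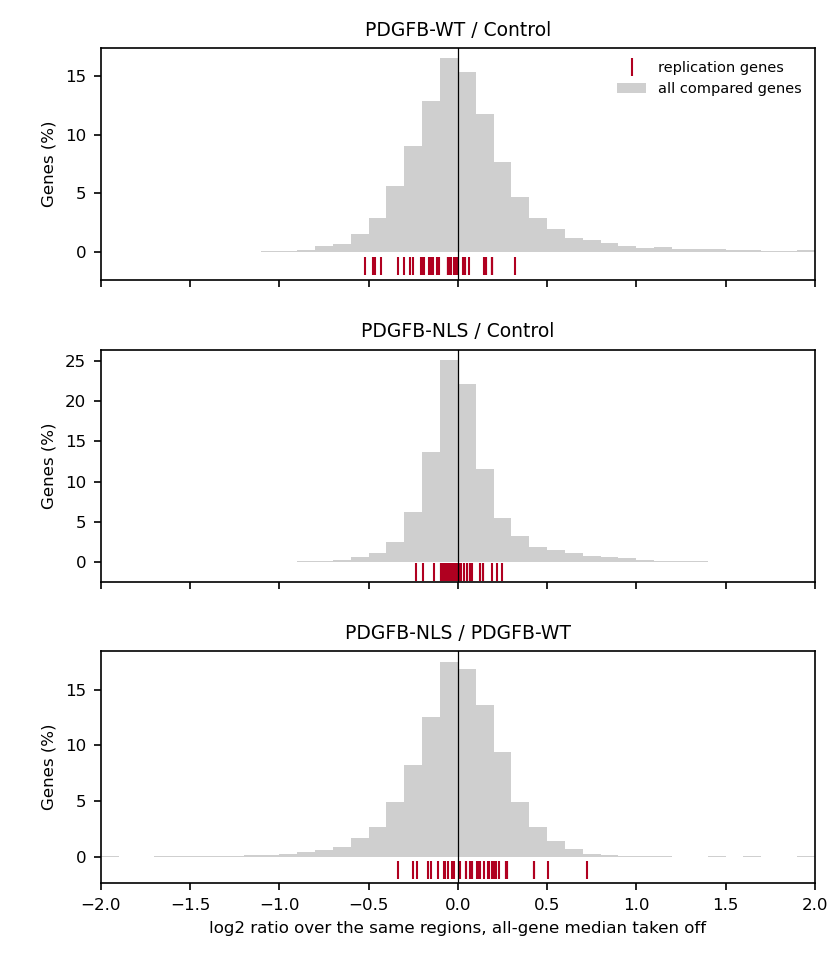
Distribution of log2 ratios over matched regions for all compared genes (grey bars, percent of genes per 0.1) and the replication genes (red ticks below), in 1 panel for each comparison. The ticks lie within the grey bars, between -0.24 and 0.25 in PDGFB-NLS against Control, and reach 0.73 (Rfc5) in PDGFB-NLS against PDGFB-WT.

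Levels in the following account of the complexes are over matched regions unless stated. Among origin recognition and licensing genes, the 6 genes of the recognition complex itself all stayed inside the limit of 0.32 in each comparison. Orc3 had 48.4 CPM in PDGFB-NLS, 47.0 CPM in PDGFB-WT and 46.7 CPM in Control, in a region that also serves the neighbouring Rars2. Orc5 had 45.4, 45.2 and 43.8 CPM over its matched start site region in the same order, and the large complex subunit gene Orc1 had 74.2, 58.8 and 70.3 CPM at its start site, which Prpf38a shares. Orc4 had 122, 118 and 116 CPM at a start site shared with Mbd5. Orc2 had 62.7 CPM in PDGFB-NLS, 50.5 CPM in PDGFB-WT and 58.0 CPM in Control. Orc6, at an end shared with Vps35, had 103, 82.1 and 94.4 CPM, a PDGFB-NLS to PDGFB-WT ratio of 0.21 (0.02 to 0.40). Over these 6 genes the PDGFB-WT to Control ratio ran between -0.11 (Orc1) and 0.19 (Orc5), inside the limit. Gmnn, whose protein geminin blocks CDT1 after origins have fired, had 53.2 CPM in PDGFB-NLS, 40.5 CPM in PDGFB-WT and 48.6 CPM in Control. Its PDGFB-WT to Control ratio of -0.12 (-0.39 to 0.15) was nearer the all-gene median than that of Cdt1. Cdc6, the loading factor that works beside CDT1, had 64.1, 55.9 and 64.9 CPM at its start site. At the far end of Cdc6 the region chr11:98924751-98926502 held 8.87 CPM in PDGFB-NLS, 18.8 CPM in PDGFB-WT and 9.43 CPM in Control, a PDGFB-WT to Control ratio of 1.17 (0.72 to 1.60).

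The MCM genes code for the ring that unwinds DNA, and no MCM gene passed the limit in any comparison over matched regions. Mcm4, whose start region is shared with the repair kinase gene Prkdc, had 141 CPM in PDGFB-NLS, 126 CPM in PDGFB-WT and 136 CPM in Control. Mcm7, shared with Ap4m1, had 138, 131 and 146 CPM. Per length of peak, Mcm4 had 153, 144 and 143 CPM per kb, above the 59.0, 43.6 and 60.1 CPM per kb of Mcm2. Mcm2 had 53.8 CPM in PDGFB-NLS, 41.0 CPM in PDGFB-WT and 54.1 CPM in Control, the lowest PDGFB-WT to Control ratio of the ring at -0.25 (-0.52 to 0.01). Mcm5 had 70.8, 73.4 and 71.2 CPM, the highest at 0.19 (-0.01 to 0.39). Mcm3 had 71.8, 64.0 and 76.6 CPM, and Mcm6, another ring subunit, had 46.5, 40.5 and 48.2 CPM. Mcm10, a helicase activator outside the ring, had 50.0, 44.0 and 48.9 CPM with a ratio of -0.00 (-0.27 to 0.26).

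CDC45 and the 4 GINS subunits complete the helicase. Gins2 had 168 CPM in PDGFB-NLS, 144 CPM in PDGFB-WT and 176 CPM in Control, while Gins3 had 26.3, 24.0 and 30.4 CPM. Gins1 had 44.8, 42.8 and 46.1 CPM, Gins4 had 89.4, 73.1 and 92.6 CPM, and Cdc45, at an end shared with Ufd1, had 57.7, 53.9 and 60.5 CPM. Per length of peak, Gins2 had 183 CPM per kb in PDGFB-NLS, 139.9 CPM per kb in PDGFB-WT and 190.3 CPM per kb in Control, and its partner Gins3 had 29.3, 26.5 and 34.1 CPM per kb. PDGFB-WT to Control ratios over matched regions lay between -0.19 (Gins3 and Gins4) and 0.04 (Gins1). In PDGFB-NLS against Control all 5 were slightly below the all-gene median, from -0.19 (Gins3) to -0.03 (Gins1), with every interval reaching 0.

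The clamp loader opens the PCNA ring and sets it on DNA. Besides Rfc1, Rfc4 and Rfc5 above, Rfc2 had 39.9 CPM in PDGFB-NLS, 43.7 CPM in PDGFB-WT and 42.5 CPM in Control over matched regions. Rfc3 had 50.2, 41.8 and 48.1 CPM. Their PDGFB-WT to Control ratios were 0.19 (-0.08 to 0.45) and -0.05 (-0.33 to 0.21), and Rfc5 was the only loader gene past the limit in PDGFB-WT against Control. The Rfc5 interval overlaps those of Rfc1 (-0.45 to 0.25) and Rfc3 but not those of Rfc2 and Rfc4 (-0.19 to 0.31), and the differences between loader genes were not tested.

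Of the polymerase genes, Pole, the leading strand polymerase, had 62.0 CPM in PDGFB-NLS, 48.6 CPM in PDGFB-WT and 66.3 CPM in Control at an end shared with Pxmp2, a PDGFB-WT to Control ratio of -0.30 (-0.55 to -0.06). Pold1, the lagging strand polymerase, had 92.3, 78.7 and 96.9 CPM at an end shared with Nr1h2, a ratio of -0.15 (-0.35 to 0.04). Pola1, the X-linked catalytic subunit of polymerase alpha, had 22.6 CPM in PDGFB-NLS, 24.5 CPM in PDGFB-WT and 24.4 CPM in Control, a ratio of 0.15 (-0.22 to 0.50). Its partner Pola2, described above, was at -0.34, and the intervals of the 2 subunits overlap. Lig1, the ligase that seals Okazaki fragments, had 57.0, 57.4 and 63.9 CPM at a start site shared with Zswim9, a ratio of -0.01 (-0.24 to 0.22).

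Nucleotide supply beyond ribonucleotide reductase runs through Tyms and Tk1. Tyms, which makes thymidylate, had 8.79 CPM in PDGFB-NLS, 11.0 CPM in PDGFB-WT and 8.96 CPM in Control, with 74 counts in PDGFB-WT. A peak in its body, chr5:30039605-30040678, held 7.65, 4.30 and 9.85 CPM. Mki67, the marker of cycling cells, had 51.2, 44.8 and 51.5 CPM, a PDGFB-WT to Control ratio of -0.06 (-0.31 to 0.20). Uhrf1 and Top2a, grouped with it here, were lower at -0.46 and -0.43. E2f1 had 81.8, 69.1 and 88.2 CPM over matched regions, a ratio of -0.20 (-0.41 to -0.00), in a start site region shared with no other gene. Its far end, where no peak was called in PDGFB-WT, is shared with Necab3. E2f2 had 15.8 CPM in PDGFB-NLS, 15.3 CPM in PDGFB-WT and 16.6 CPM in Control at its outer start, with 50.1, 46.4 and 54.7 CPM at another start inside the table's gene, chr4:136179986-136180927.

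**Figure D5:**
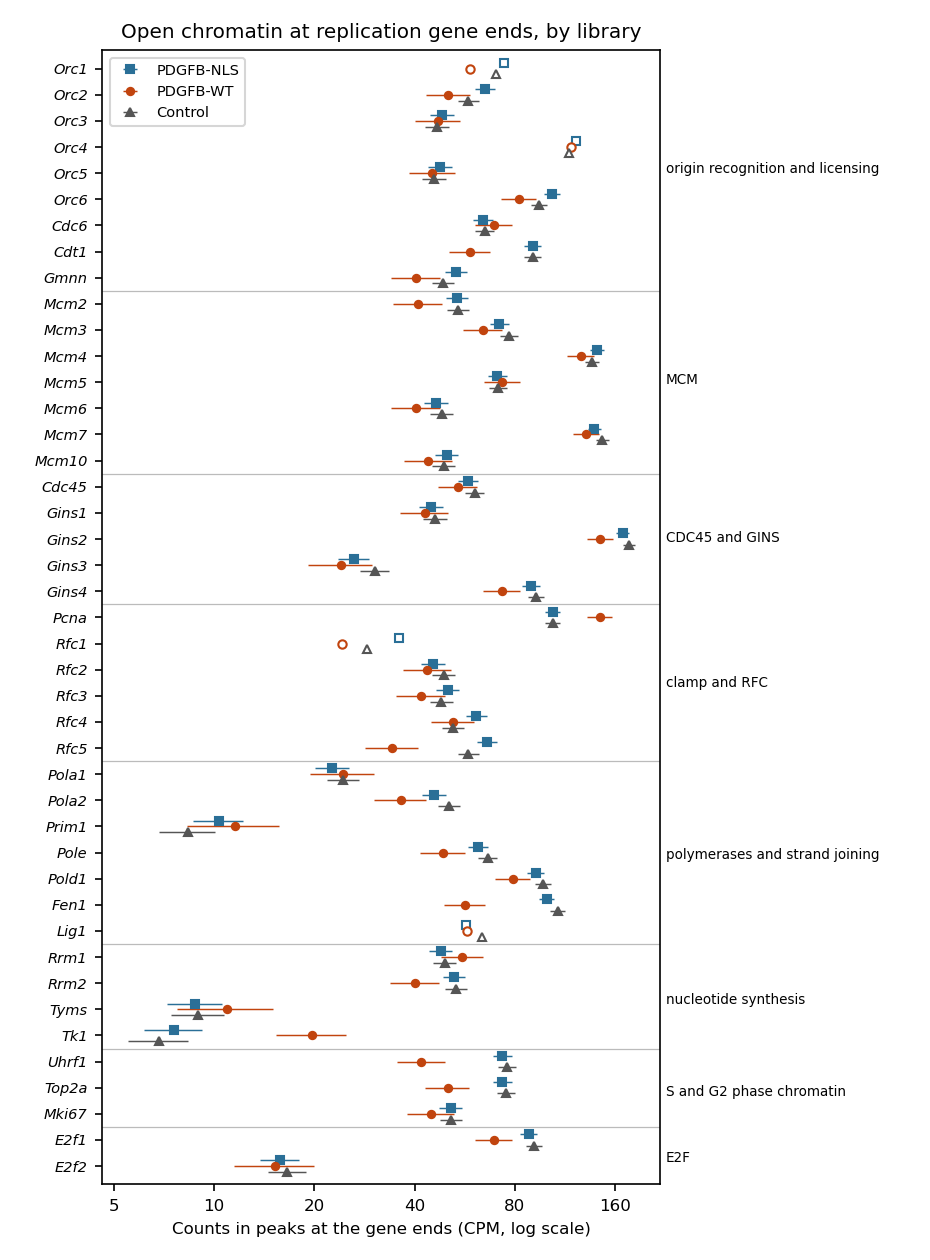
Counts in peaks at the gene ends (horizontal axis, CPM on a log scale) for each of the 43 genes (rows, grouped by complex) in PDGFB-NLS (squares), PDGFB-WT (circles) and Control (triangles). Filled points are each library's own peaks with exact 95% Poisson intervals for counting error, and open points are start site regions of Orc1, Orc4, Rfc1 and Lig1. For many genes the intervals overlap. PDGFB-WT lies apart below at Cdt1, Rfc5, Uhrf1, Top2a, Fen1, Mcm2, Gins2, Gins4, Pole, Rrm2 and E2f1, and above at Pcna and Tk1. The plotted levels are not relative to other genes. Over all compared genes the median log2 ratio of PDGFB-WT to Control from own peaks was itself -0.17. With that median taken off, Mcm2, Gins2, Gins4, Pole, Rrm2 and E2f1 lay within the limit, from -0.28 (Pole) to -0.12 (Gins2). The share of all genes with intervals apart is not given, so the list does not set the replication genes apart from others.

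Inside the genes, beyond 1000 bp of the listed ends, 53 regions lay in 23 genes. Of these, 18 were called in all 3 libraries and 35 in only 1 or 2. Of all 147229 merged regions 47450 were called in all 3, a similar share. The 5 largest were start site regions, those of Orc4, Orc1, Lig1, E2f2 and Rfc1 given above, and the sixth was in Pola2. The highest level of any of the other 47 was 19.9 CPM. The minimum of 100 counts was not applied to these regions, so the ratios below rest on fewer counts than those at the gene ends. In Cdc45 the region chr16:18805434-18806420 held 2.52 CPM in PDGFB-NLS, 6.52 CPM in PDGFB-WT and 1.47 CPM in Control, from 62, 44 and 38 counts. Its PDGFB-WT to Control ratio was 2.31 (1.38 to 3.25), while the start site of Cdc45 was at -0.02 (-0.24 to 0.20). In Orc2 the region chr1:58482481-58483576 held 6.07 CPM in PDGFB-NLS, 6.08 CPM in PDGFB-WT and 2.95 CPM in Control, from 149, 41 and 76 counts, so both PDGFB libraries were above Control there, at 1.06 (0.48 to 1.65) and 1.21 (0.37 to 2.01). A region in Gins1, chr2:150921429-150922441, went the other way with 10.6, 9.78 and 17.2 CPM, from 260, 66 and 443 counts, and ratios to Control of -0.68 (-1.0 to -0.38) for PDGFB-NLS and -0.65 (-1.21 to -0.12) for PDGFB-WT. In Tyms the body peak was at -0.35 (-0.74 to 0.04) in PDGFB-NLS and -1.03 (-1.88 to -0.28) in PDGFB-WT, from 188 and 29 counts, against 254 in Control. Pola2 had a body region, chr19:5944880-5945774, with 23.2 CPM in PDGFB-NLS and 33.2 CPM in Control that was not called in PDGFB-WT. These regions were picked out after their values were seen, among all body regions of the 43 genes.

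Per length of peak the replication genes were somewhat more open than genes at large in each library. Their median was 55.3 CPM per kb in PDGFB-NLS, 48.4 CPM per kb in PDGFB-WT and 55.3 CPM per kb in Control, where the 12901 protein-coding genes with an end peak in all 3 libraries had medians of 39.6, 38.8 and 40.2 CPM per kb. Of the 39 genes, 27, 27 and 29 lay above that median. Gins2 and Mcm4 were at the top of the list in each library. Prim1, Tyms and Tk1 were lowest in PDGFB-NLS and Control, and Tyms, Prim1 and Pola2 in PDGFB-WT. For Tk1 the low value in PDGFB-NLS and Control is that of its smaller peak, since its larger region was counted in PDGFB-WT alone.

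Summed over the 39 genes, matched regions held 2521 CPM in PDGFB-NLS, 2172 CPM in PDGFB-WT and 2542 CPM in Control. PDGFB-WT had the lowest sum in each of the 8 groups of genes. For CDC45 and GINS it was 387 CPM in PDGFB-NLS, 338 CPM in PDGFB-WT and 405.5 CPM in Control, and for the S and G2 phase chromatin genes 186, 137 and 191 CPM. These sums are not relative to other genes, and the median ratio of PDGFB-WT to Control over all compared genes was itself -0.15 on the log2 scale. On the 15 chromosomes that carry the 43 genes, the median ratio of all genes, relative to the genome, ran from -0.04 to 0.06 in PDGFB-WT against Control and from -0.02 to 0.03 in PDGFB-NLS against Control.

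A list of 64 further genes of replication, nucleotide synthesis and S phase entry gave a similar picture. Dnmt1 and Dctd had no peak at an end in all 3 libraries, and Ctps2 had too few counts in PDGFB-WT. In PDGFB-WT against Control, 9 of 61 genes were past the limit and lower (11.8% of all genes) and 2 were higher (14.1%), with a median of -0.04. Over matched regions 9 were lower (10% of all genes) and 4 higher (14%). Impdh1 and Cdk2 had the lowest ratios. Impdh1, an enzyme of guanine nucleotide synthesis, had 27.1 CPM in PDGFB-NLS, 19.4 CPM in PDGFB-WT and 37.2 CPM in Control, a ratio of -0.77 (-1.16 to -0.40), and -0.63 over matched regions. Cdk2, the S phase kinase, was at -0.57 (-0.87 to -0.28). Gmps and Impdh2, both also of guanine nucleotide synthesis, were highest at 0.46 (0.25 to 0.66) and 0.41 (0.20 to 0.63). The isoenzymes Impdh1 and Impdh2 thus lay on opposite sides of the all-gene median, with intervals that do not overlap.

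In PDGFB-NLS against Control the same list had 2 of 62 genes lower (5.37% of all genes) and 0 higher (10.9%). Ctps2, a CTP synthase, was lowest, with 6.23 CPM in PDGFB-NLS, 10.5 CPM in PDGFB-WT and 14.5 CPM in Control, a ratio of -1.21 (-1.58 to -0.85) from own peaks and over matched regions. Impdh1 followed at -0.44 (-0.65 to -0.24), and -0.28 over matched regions. Cdc7, the kinase that fires origins, was highest at 0.31 (0.12 to 0.49), with Tfdp1, the partner of the E2F factors, at 0.25 (0.05 to 0.44). In PDGFB-NLS against PDGFB-WT 8 of 61 genes were higher (10.9% of all genes) and 1 lower (11%). The highest were the genes of the chromatin assembly factor, Chaf1b at 0.64 (0.40 to 0.89) and Chaf1a at 0.53 (0.25 to 0.82). Chaf1b had 81.6 CPM in PDGFB-NLS, 47.4 CPM in PDGFB-WT and 73.7 CPM in Control. Gmps was lowest at -0.55 (-0.75 to -0.34), followed by Samhd1, which breaks down nucleotides, at -0.31 (-0.55 to -0.06).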

How the data were processed

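Open chromatin was measured in 3 mouse libraries, 1 per group, grouped by their titles. The authors deposited raw counts per peak and barcode with a separate peak list for each library, from cellranger-atac 2.1.0 per the file headers, while Cell Ranger 8 and mm10 are named in the submitters' processing notes. How peaks and cells were called is not given in the sources used here. The value 2 made up 87.9% of entries in PDGFB-NLS, 89.4% in PDGFB-WT and 72.9% in Control, so the deposited counts are read as cut sites. Intervals were computed on fragments, a value v being (v + 1) // 2.

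Barcodes with at least 200 counts were kept, 10996 of 10996 in PDGFB-NLS, 7441 of 7511 in PDGFB-WT and 2226 of 2267 in Control. The peak lists were merged into 147229 regions, and counts in the 47450 called in all 3 libraries set the scale of 1000000. Those regions held 78.8% of counts in PDGFB-NLS, 96.3% in PDGFB-WT and 81.6% in Control. A level is the sum over peaks within 1000 bp of a gene end. A ratio is the log2 ratio of CPM minus the median of all compared genes, which was -0.17 in PDGFB-WT against Control, -0.01 in PDGFB-NLS against Control and 0.14 in PDGFB-NLS against PDGFB-WT. Intervals are Clopper-Pearson on the conditional binomial at 95%, or exact Poisson for levels, and cover counting error only. The minimum of 100 counts equals 4.07 CPM in PDGFB-NLS, 14.8 CPM in PDGFB-WT and 3.88 CPM in Control. All 43 genes were to be described by complex, with the 2 highest and 2 lowest of the 64 further genes per comparison named. The members, gene lists, marker lists and motifs were chosen with earlier results of these data known. Start site regions were added after seeing the data. The ratio and its interval were tested on simulated data. Python 3.11.15, numpy 2.4.6, pandas 2.3.3, scipy 1.17.1 and matplotlib 3.10.9 were used.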

Additional observations from a re-analysis of the deposited data

How the results depend on the processing

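No paired analysis was possible because each group has 1 library, and for the same reason no replicate could be left out. The median of the replication genes moved by less than the median half-width of the genes' 95% intervals under all 18 alternatives, from -0.20 to -0.02 in PDGFB-WT against Control, -0.03 to 0.00 in PDGFB-NLS against Control and 0.01 to 0.20 in PDGFB-NLS against PDGFB-WT. The counts of genes past the limit of 0.32 moved more. They are given without the share of all genes in each setting, so they show dependence on the setting only. Without the all-gene median taken off, the ratios of all genes shift alike. The shift is -0.17 in PDGFB-WT against Control and 0.14 in PDGFB-NLS against PDGFB-WT. In PDGFB-WT against Control the 3 higher genes became 1 with fragments, with windows of 500 or 2000 bp, without peaks shared with another gene and at start sites, 0 over matched regions, and 5 without a count minimum or per kb of peak. The 5 lower genes became 3 with a minimum of 300 counts, 11 per kb of peak and 12 without the all-gene median taken off. In PDGFB-NLS against Control the 1 higher gene became 2 with the gene body added and 0 with windows of 500 bp, the higher end only, matched regions, the 40000 densest peaks, no minimum, a minimum of 300 counts, per kb, without shared peaks or without the median taken off. The 0 lower genes became 1 with counts capped at 1 or with equal weight per barcode, and 2 per kb. In PDGFB-NLS against PDGFB-WT the 5 higher genes became 8 with the gene body, 3 with a minimum of 300 counts and 13 without the median taken off. The 3 lower became 1 with capped counts, windows of 500 or 2000 bp, matched regions, start sites or no shared peaks, and 5 per kb. The value per kb divides by the length of peaks called separately in each library. Signs turned in PDGFB-WT against Control for Tk1 (-0.64 with 2000 bp, -0.37 with the gene body, -0.038 over matched and -0.037 over start site regions) and, per kb, for Pcna (-0.89) and Rfc5 (0.37). They turned in PDGFB-NLS against Control for Prim1 (-0.24 with 500 bp and over matched regions, -0.23 with the higher end, the densest peaks or start sites, -0.88 per kb). They turned in PDGFB-NLS against PDGFB-WT for Pcna (0.0073 over matched regions, 0.0018 at start sites, 0.88 per kb), Tk1 (0.60 with 2000 bp, 0.54 with the gene body, 0.27 over matched and start site regions), Rfc5 (-0.27 per kb) and Uhrf1 (-0.23 per kb). For Tk1 the matched and start site settings read the same region, chr11:117824284-117825211. The region over the Tk1 start site itself was not called in PDGFB-WT. Apart from peaks called in 1 library and not another, the cause of the turned signs was not tested. Depth limits PDGFB-WT most, where 3 counts equal 0.445 CPM, against 0.122 CPM in PDGFB-NLS and 0.116 CPM in Control.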
